A study of Mus musculus with 38 samples.

Results

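The regions described here are 494 of the 24731 windows of 100 kb into which mouse chromosomes 1 to 19 (build NCBI37/mm9) were divided from position 0. They were chosen by 2 readouts of the deposited peak lists. No base-unpairing region (BUR) had its midpoint in the window, and at least 1 peak midpoint of another list did. BUR-free bins below means these 494, and BUR-bearing bins means the 23297 bins that held at least 1 BUR and at least 1 other peak. The values that chose the bins, BUR counts and the presence of any peak, are a description and no finding. Of the remaining bins, 738 held neither a BUR nor a peak and 202 held a BUR and no other peak.

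The study mapped where the chromatin protein SATB1 binds in C57BL/6 mice that were wild type for Satb1, and 11 peak lists were used, each from 1 sample. SATB1 urea ChIP-seq was made from thymocytes, brain and skin with antibody 1583D, with 2 replicates each, where brain means cells of the cortex and skin means epidermal keratinocytes by the protocols. SATB1 standard ChIP-seq was made from thymocytes with 2 replicates, for which the labels name antibody ab109122 in replicate 1 and 1583D in replicate 2, so antibody and replicate cannot be told apart there. CTCF urea ChIP-seq had 1 list from thymocytes and 1 from skin, and the BUR reference map was 1 list of sheared, purified thymocyte DNA bound in vitro by recombinant SATB1. The labels put the thymus and skin at postnatal day 13 and the brain at 5 and 6 weeks. Titles give 6 weeks for the thymocyte CTCF sample and for standard replicate 1, the protocols give day 13 for thymus and brain and day 5 for skin, and the methods of the study give other ages again for brain and skin, so age may differ between lists. The thymocyte urea replicates were made with 4 and 2 µl of antibody and are numbered here as in the labels. The study's reporting checklist describes its replicates in general as cells of separate animals. The labels do not say so for each list, and the titles give both brain replicates 1 preparation code with 10 and 12 cycles, so the spread between lists may in part be technical.

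BURs are stretches of DNA that unpair readily under negative superhelical strain, and SATB1 recognises them through their AT-rich sequence context, in which C or G is lacking on a strand. Urea ChIP-seq purifies crosslinked DNA under denaturing conditions and keeps the proteins fixed directly to it, whereas standard ChIP-seq shears crosslinked chromatin as it stands and also captures proteins held to DNA through others. CTCF is a zinc finger protein with a long, GC-rich motif that marks loop anchors and domain borders, and it also binds many promoters.

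BUR-free bins were gene-rich and poor in AT. Standard SATB1 and CTCF peaks were more than 2 times as dense in them as in BUR-bearing bins (ratios of 2.13 to 2.51). Urea SATB1 peaks were sparser (ratios of 0.116 to 0.239), which the rule that chose the bins bears on. Of the urea SATB1 peaks that remained in thymocytes and brain, 60.3% to 63.8% held 2 or more copies of a word, CTAAT or its reverse complement ATTAG. In BUR-bearing bins 58.1% to 66.0% of the peaks of these lists did, and 10.3% of all windows. The median AT content of the peaks that remained in thymocytes and brain was 58.1% to 60.4%. Of the urea SATB1 peaks that remained in skin, 58.5% and 61.5% lay on a skin CTCF peak (a mean of 35.2% with lists of equal size), and 19.5% and 23.1% held the word repeatedly.

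Sequences around the summits of the strongest of these peaks are shown because the word is visible in them. Each covers 200 bases of NCBI37/mm9, plus strand, 5′ to 3′, and CTAAT and ATTAG are in capitals. The first 4 are thymocyte urea SATB1 peaks present in both replicates and on no BUR, followed by 2 skin peaks, the strongest CTCF peak of thymocytes shared with skin, the strongest standard SATB1 peak, and, for comparison, the BUR nearest to the first peak, which was chosen after its values were seen.
Thymocyte urea SATB1 peak 1, chr6:145303525-145303724: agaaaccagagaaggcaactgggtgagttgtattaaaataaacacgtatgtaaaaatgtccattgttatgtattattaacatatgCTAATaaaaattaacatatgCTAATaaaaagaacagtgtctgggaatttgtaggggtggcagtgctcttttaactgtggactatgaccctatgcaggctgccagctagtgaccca
Thymocyte urea SATB1 peak 2, chr13:56099147-56099346: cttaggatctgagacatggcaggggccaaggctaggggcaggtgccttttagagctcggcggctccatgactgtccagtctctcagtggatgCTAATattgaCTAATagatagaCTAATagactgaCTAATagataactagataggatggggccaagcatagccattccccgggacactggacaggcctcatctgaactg
Thymocyte urea SATB1 peak 3, chr1:92480537-92480736: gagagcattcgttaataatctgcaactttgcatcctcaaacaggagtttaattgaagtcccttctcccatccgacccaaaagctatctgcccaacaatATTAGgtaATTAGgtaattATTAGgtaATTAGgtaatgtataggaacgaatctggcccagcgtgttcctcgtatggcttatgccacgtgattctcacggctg
Thymocyte urea SATB1 peak 5, chr12:118399322-118399521: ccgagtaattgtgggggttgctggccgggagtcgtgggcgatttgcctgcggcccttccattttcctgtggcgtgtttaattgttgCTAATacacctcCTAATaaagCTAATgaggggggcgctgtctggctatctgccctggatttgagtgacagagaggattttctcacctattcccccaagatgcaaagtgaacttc
Skin urea SATB1 peak 1, chr19:9010170-9010369: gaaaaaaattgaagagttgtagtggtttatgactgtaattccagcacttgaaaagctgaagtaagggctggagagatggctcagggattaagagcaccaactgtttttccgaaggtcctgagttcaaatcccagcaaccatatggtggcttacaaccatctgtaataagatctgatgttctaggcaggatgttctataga
Skin urea SATB1 peak 2, chr14:78859196-78859395: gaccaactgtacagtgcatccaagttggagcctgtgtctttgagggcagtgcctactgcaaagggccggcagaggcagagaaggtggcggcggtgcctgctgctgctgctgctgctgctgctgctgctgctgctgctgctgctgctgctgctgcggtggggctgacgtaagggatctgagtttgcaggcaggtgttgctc
CTCF peak 1, chr11:5015035-5015234: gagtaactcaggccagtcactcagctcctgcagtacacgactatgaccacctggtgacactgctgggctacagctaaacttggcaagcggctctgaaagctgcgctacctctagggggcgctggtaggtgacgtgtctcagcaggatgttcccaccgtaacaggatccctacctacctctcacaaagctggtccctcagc
Standard SATB1 peak 1, chr19:53674326-53674525: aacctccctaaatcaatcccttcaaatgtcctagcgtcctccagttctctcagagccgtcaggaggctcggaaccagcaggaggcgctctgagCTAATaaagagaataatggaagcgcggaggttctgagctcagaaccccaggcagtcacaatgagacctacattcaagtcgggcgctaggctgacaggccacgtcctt
BUR nearest to thymocyte peak 1, chr6:145268983-145269182: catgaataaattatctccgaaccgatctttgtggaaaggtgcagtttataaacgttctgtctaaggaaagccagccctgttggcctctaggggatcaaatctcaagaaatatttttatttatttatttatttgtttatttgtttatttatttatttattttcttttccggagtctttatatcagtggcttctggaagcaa

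The 4 thymocyte windows held between 2 and 4 copies of the word, and both skin windows and the BUR window held 0. The window of brain peak 3, not shown, held 1. The word was picked after the sequences had been seen, so these counts only describe them. The BUR is a single one, and 33.4% of all BURs held at least 2 copies in 300 bp around the summit. The longest run without C or without G was 58 bases in the BUR window and 23, 14, 49 and 22 bases in the 4 thymocyte windows. Thymocyte peak 1 (chr6:145303399-145303832) had a fold enrichment at the summit of 27.2 in both replicates, lay between genes with its nearest BUR midpoint 34.5 kb away, and overlapped urea SATB1 peaks of brain and skin. Peak 2 (chr13:56099046-56099469) reached 22.1 and 25.8 in the 2 replicates, and it overlapped urea SATB1 peaks of brain and skin too. Peak 3 (chr1:92480427-92480844, fold 21.8 and 19.9) lay 19.4 kb from the start of Cops8, which encodes a subunit of the COP9 signalosome. Peak 5 (chr12:118399213-118399655, fold 16.7 and 17.5) lay in an intron of Ptprn2, a receptor-type phosphatase of secretory granules, and peak 4 of the ranking (chr15:99350199-99350626, fold 18.8 in both replicates) lay in an intron of Faim2, an inhibitor of apoptosis in neurons. Brain peak 1 was the same site on chromosome 6 (fold 16.7 and 18.8), and brain peak 3 (chr2:180481375-180481965, fold 14.3 and 19.7) lay between genes. None of these overlapped a CTCF or standard SATB1 peak. Skin peak 1 (chr19:9010056-9010484, fold 18.5 and 17.4) lay in an intron of Eml3, skin peak 2 (chr14:78859077-78859510, fold 17.6 and 15.4) lay between genes, and skin peak 3 (chr2:30690239-30690468, fold 14.5 and 12.4) had its summit 0.18 kb from the start of Prrx2, a homeobox gene of mesenchyme. All 3 skin peaks overlapped a skin CTCF peak and a standard SATB1 peak of thymocytes, and none overlapped a urea SATB1 peak of thymocytes or brain. The 2 strongest standard SATB1 peaks lay 0.46 kb from the start of Smc3, which encodes a cohesin subunit (fold 27.2 and 20.5), and 12.5 kb from the start of Ifngr2, the interferon gamma receptor chain (fold 24.3 and 19.6). The 2 strongest CTCF peaks shared with skin lay in an intron of Emid1 (fold 27.7 in thymocytes and 17.5 in skin) and 0.084 kb from the start of Adrm1, a proteasome ubiquitin receptor (fold 26.1 and 11.2). Both overlapped a standard SATB1 peak.

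Genes were frequent in BUR-free bins. By the GENCODE annotation of this assembly, 899 protein-coding genes started in them, a mean of 1.82 per bin against 0.874 in BUR-bearing bins. Of the 21418 protein-coding gene starts on chromosomes 1 to 19, 4.2% thus lay in BUR-free bins. At least 1 gene start was present in 67.6% of BUR-free bins (334 of 494, 95% Wilson interval 63.4 to 71.6%, which covers the counting of bins only) against 43.1% of BUR-bearing bins. The densest BUR-free bin held 11 gene starts, and 54 bins (10.9%) held 5 or more, against 2.99% of BUR-bearing bins. The genes were shorter at the upper end, with 4.89% over 100 kb long against 10.9% in BUR-bearing bins, and their median lengths were 11.9 and 15.8 kb. AT content averaged 51.7% ± 3.03 (SD over 494 bins) in BUR-free bins and 58.2% ± 3.83 (SD over 23297 bins) in BUR-bearing bins, and CpG dinucleotides numbered 13.0 and 8.42 per kb. Gene starts were denser in the BUR-free bins of 18 of 19 chromosomes and AT content was lower in those of 19 of 19. BUR-free bins made up between 0.447% (chromosome 3) and 3.53% (chromosome 11) of the resolved bins of a chromosome.

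Standard SATB1 ChIP-seq and CTCF urea ChIP-seq filled these bins. Standard replicates 1 and 2 had 2057 and 1138 peaks there, which were 4.40% and 4.32% of their peaks on chromosomes 1 to 19. CTCF had 998 peaks in thymocytes (5.05%) and 1330 in skin (4.38%). Thymocyte urea SATB1 replicates had 137 and 109 peaks (0.323% and 0.297%), brain replicates had 277 and 279 (0.246% and 0.268%), and skin replicates had 52 and 41 (0.505% and 0.411%). BUR-free bins were 494 of the 24731 bins. Every urea SATB1 list was thus below every standard SATB1 and CTCF list, an order on which the rule that chose the bins bears. In thymocytes the share averaged 0.310% ± 0.0182 by urea and 4.36% ± 0.0567 by standard ChIP-seq (SD, n = 2 each), a difference of -4.05 percentage points. The difference between the 6 urea SATB1 lists and the 2 CTCF lists was -4.37 percentage points. Both differences are descriptions without a test, because the rule that chose the bins bears on their direction. In BUR-bearing bins 72.9% to 79.9% of urea SATB1 peaks overlapped a BUR, against 3.63% and 4.85% of the standard SATB1 peaks and 2.73% and 4.04% of the CTCF peaks.

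Per bin, standard SATB1 peaks averaged 3.23 ± 1.32 in BUR-free bins and 1.5 ± 0.591 in BUR-bearing bins (SD, n = 2 lists), and the ratio of the densities was 2.15 ± 0.0292. For CTCF the ratio was 2.51 in thymocytes and 2.16 in skin. For urea SATB1 it was 0.147 ± 0.00864 in thymocytes, 0.122 ± 0.00715 in brain and 0.217 ± 0.0316 in skin (SD, n = 2 lists each). Standard SATB1 peaks were denser in the BUR-free bins of 19 of 19 chromosomes, thymocyte and skin CTCF peaks in those of 18 and 19, and urea SATB1 peaks of any cell type in those of 0. The rule bears on the urea SATB1 ratios and on this count, since most urea SATB1 peaks of BUR-bearing bins overlapped a BUR.

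**Figure D1:**
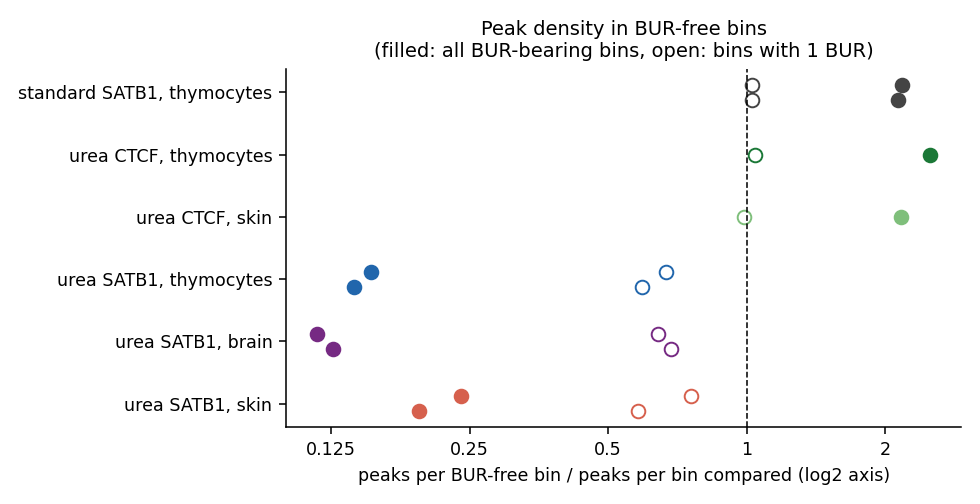
Peaks per BUR-free bin divided by peaks per BUR-bearing bin (filled points) or per bin with exactly 1 BUR (open points), on a log2 axis, for each of the 10 lists, 1 point a list. Filled points of standard SATB1 and CTCF lie between 2.13 and 2.51 and those of urea SATB1 between 0.116 and 0.239, while open points lie near 1 for the former and between 0.581 and 0.756 for the latter.

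These bins were the end of a gradient. The 1156 bins with exactly 1 BUR and another peak held 1.83 gene starts, 52.5% AT, and 4.05 and 2.24 peaks of the standard replicates, close to the 1.82, 51.7%, 4.16 and 2.3 of BUR-free bins. Densities in BUR-free bins relative to those 1-BUR bins were 1.03 ± 0.00137 for standard SATB1 (SD, n = 2), 1.04 for thymocyte CTCF and 0.985 for skin CTCF. Urea SATB1, on which the rule bears, stood at 0.631 ± 0.0548 in thymocytes, 0.663 ± 0.0306 in brain and 0.669 ± 0.123 in skin (SD, n = 2 each). In the 2386 bins with 20 or more BURs, by contrast, gene starts averaged 0.259 and the standard replicates 0.212 and 0.156 peaks.

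**Figure D2:**
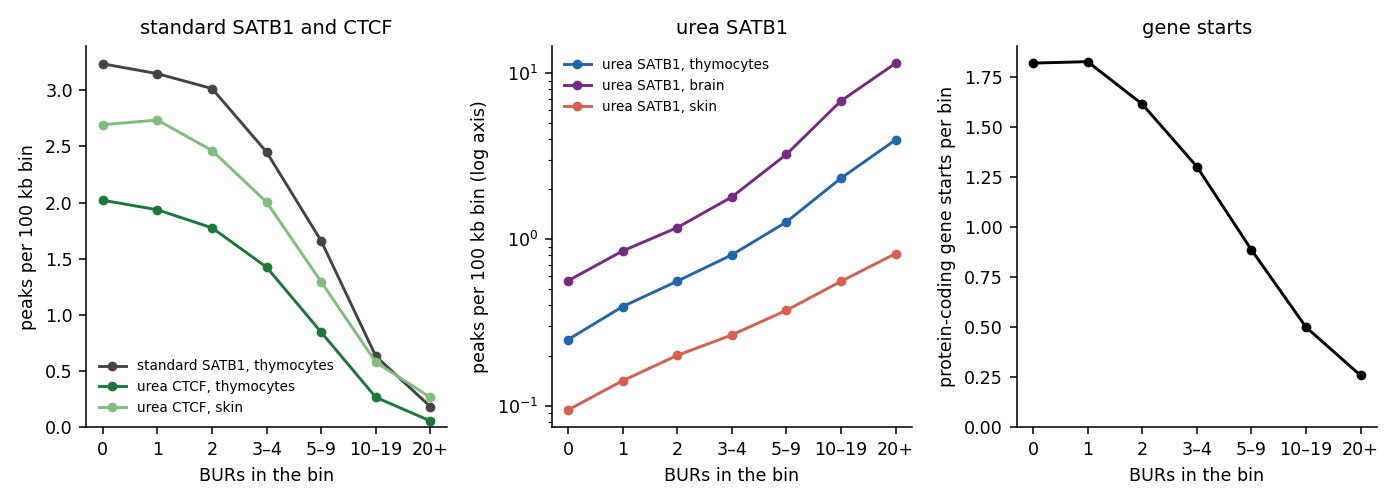
Mean peaks per 100 kb bin (left and middle, lists averaged over replicates, middle on a log axis) and mean protein-coding gene starts per bin (right) for bins with another peak, by the number of BURs in the bin. Standard SATB1, CTCF and gene starts are near their highest at 0 and 1 BUR, and urea SATB1 is lowest at 0.

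Part of the contrast between bins went with their base composition. Within bands of 2 percentage points of AT content, from 46% to 58%, thymocyte CTCF was lower in BUR-free than in BUR-bearing bins in each of the 6 bands, for instance 2.14 against 2.52 peaks per bin at 50% to 52% AT (104 and 1081 bins, each at most 10% unresolved). At the same AT content the standard SATB1 mean was 3.08 against 3.70 peaks and the gene start mean 1.71 against 2.15. Over the 6 bands standard SATB1 was higher in BUR-free bins in 2 (5.42 against 5.35 at 46% to 48%, and 1.78 in both at 56% to 58%) and gene starts in 1 (1.05 against 0.935 at 56% to 58%), so the excess of more than 2 times was not seen between bins of like AT content. These band means were not tested. Thymocyte urea SATB1 peaks averaged 0.260 against 0.543 per bin in this band and were fewer in BUR-free bins in all 6, which the rule bears on, since the BUR-bearing bins keep the peaks that lie on BURs. BUR number and AT content move together, and their parts were not told apart further.

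**Figure D3:**
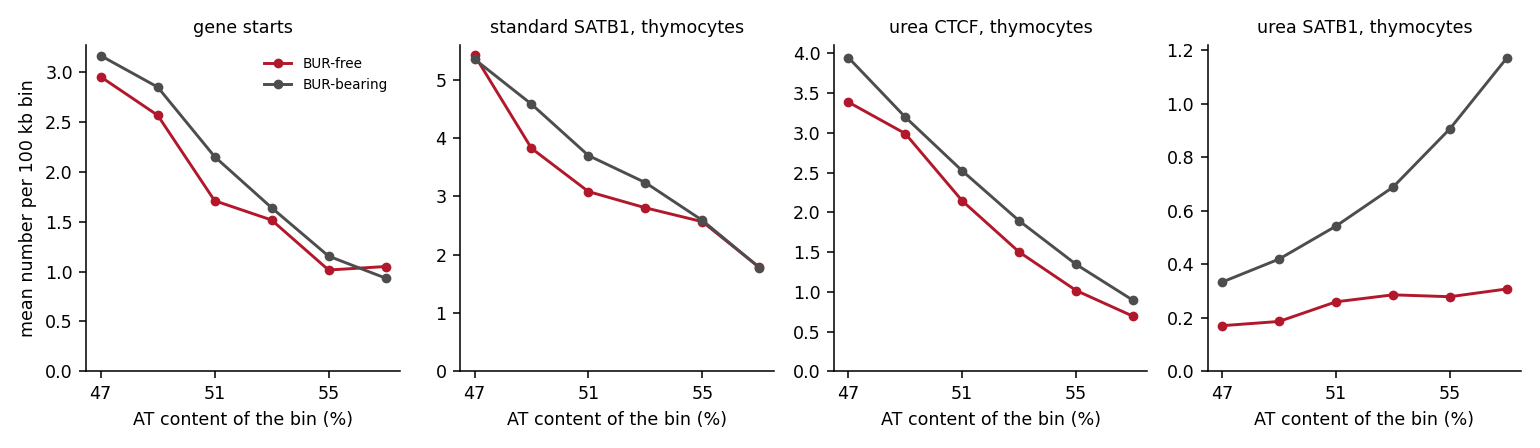
Mean number per 100 kb bin of gene starts, standard SATB1, thymocyte CTCF and thymocyte urea SATB1 peaks against the AT content of the bin in bands of 2 percentage points, for BUR-free (red) and BUR-bearing (grey) bins. The lines for genes and standard SATB1 cross, the CTCF line of BUR-free bins is the lower one in all 6 bands, and the urea SATB1 line of BUR-free bins stays between 0.170 and 0.308 while that of BUR-bearing bins climbs from 0.333 to 1.17.

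Most BUR-free bins carried both standard SATB1 and CTCF. Both were present in 387 bins (78.3%), standard SATB1 without CTCF in 26, CTCF without standard SATB1 in 61, and neither in 20, which were in the set through urea SATB1 peaks alone. The share with both was not counted in other bins. Standard replicate 1 had a peak in 82.2% of BUR-free bins, 82.6% of bins with exactly 1 BUR and 50.9% of BUR-bearing bins. For thymocyte CTCF these shares were 73.7%, 73.4% and 38.0%, and for skin CTCF 88.3%, 87.1% and 55.6%. No urea SATB1 peak of any cell type was found in 233 BUR-free bins (47.2%), a share that was not counted in other bins. Thymocyte urea SATB1 replicate 1 had a peak in 23.9% of BUR-free bins, 34.2% of bins with exactly 1 BUR and 75.2% of BUR-bearing bins. For replicate 1 of brain these shares were 39.9%, 56.1% and 90.8%, and for replicate 1 of skin 8.50%, 12.6% and 34.4%. The rule bears on them. BUR-free bins without a gene start numbered 160 and were less crowded. They averaged 2.70 and 1.43 peaks of the standard replicates and 1.16 of thymocyte CTCF, against 4.87, 2.72 and 2.43 in the 334 bins with a gene start. BUR-bearing bins without a gene start averaged 0.867, 0.443 and 0.322.

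Of the 10 bins with the most standard SATB1 peaks, the highest, chr11:117100001-117200000, held 17 and 11 peaks of the standard replicates, 3 CTCF peaks of thymocytes and 5 of skin, and 0 urea SATB1 peaks. No gene started in it, and the nearest gene start to its strongest peak, 93.0 kb away, was that of the septin gene Sept9. The next, chr10:80700001-80800000, held 15 and 10 standard peaks and 7 gene starts, and the gene nearest to its strongest peak was Tjp3, a tight junction protein. In 3 further bins the nearest genes were Arrdc2 (12 and 11 peaks), Gse1 (12 and 10) and, 108 kb away, Fam92b (14 and 7). Socs1, an inhibitor of cytokine receptor signalling, was nearest in chr16:10700001-10800000 (12 and 9 peaks), and A630055G03Rik in the bin beside it (12 and 8). Of the others described, 2 were nearest to Acsf3, an acyl-CoA synthetase (13 and 8 peaks), and to Fkbp8, a binding protein of the FK506 type (13 and 7). Across these 10 bins, standard SATB1 exceeded 6 peaks in each replicate and no urea SATB1 list exceeded 1 peak in any bin.

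BUR-free bins were mostly isolated. Of the stretches of adjacent bins, 397 were single bins, 37 were pairs, 5 had 3 bins and 2 had 4 bins. The distance between the BUR midpoints on either side of a BUR-free bin had a median of 171 kb, where successive BURs of the whole map lay a median of 5.80 kb apart. The 400 kb at chr2:166200001-166600000 contained the start of 1 gene, Prex1, a Rac exchange factor of myeloid and lymphoid cells. It carried 25 and 21 standard SATB1 peaks, 8 and 10 CTCF peaks of thymocytes and skin, and between 0 and 3 peaks of each urea SATB1 list. The other stretch of 400 kb, chr14:26700001-27100000, contained 12 gene starts, among them D14Ertd449e, Gm10395, Duxbl and Gm9746, and it was sparse in thymocytes, with 6 and 1 standard peaks, 0 CTCF peaks and 0 urea SATB1 peaks, but had 10 CTCF peaks in skin. The study kept only reads that match 1 place, and how much of this stretch such reads can cover was not measured. The 300 kb at chr16:10600001-10900000 was the most crowded, with 36 and 23 standard peaks around Socs1, A630055G03Rik, Gm11172 and the transition protein gene Tnp2, and it held 1 urea SATB1 peak in thymocyte replicate 1 and 1 in each brain replicate. It was 1 of 5 stretches of 300 kb, and the 3 of these with the most standard SATB1 peaks are described, of which the other two lay on chromosome 4. One (chr4:154300001-154600000, 20 and 13 standard peaks) held Ski, a repressor of TGF-beta signalling, Tnfrsf14, a lymphocyte co-signalling receptor, Rer1 and Morn1. The other (chr4:151600001-151900000, 13 and 6) held Hes3, a repressor of the Notch pathway, Icmt, the ribosomal protein gene Rpl22 and Nphp4.

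Gene lists were read against the 4.2% of protein-coding gene starts that lie in BUR-free bins. Of the T-cell lists, 1 of 18 transcription factors started in one, the early growth response factor Egr2, with 2 and 1 standard peaks within 10 kb of its start, and 1 of 24 T-cell receptor signalling genes, the Src-family kinase Fyn, with 4 and 3. Neither had a urea SATB1 peak of thymocytes within that distance. Among chromatin architecture genes 2 of 17 did so, namely Smc3 and Lbr, the lamin B receptor of the inner nuclear membrane. Further lists had 5 of 78 ribosomal protein genes (Rplp2, Rpl18, Rpl22 and Rpl31 had the most standard peaks, 3 and 2 within 10 kb of Rplp2) and 1 of 67 replication-dependent histone genes, Hist1h2al. Of the tissue lists, 1 of 20 cortical neuron genes was there, Grin1, a subunit of the NMDA receptor, and 0 of 18 keratinocyte genes. Keratins had 3 of 46, Krt86, Krt84 and Krt82, all in 1 bin. Among other developmental transcription factors 7 of 119 were there, including Foxo3 (3 and 3 standard peaks), Sox8, Tbx2 and Six5. The zinc finger Zfp family had 4 of 357 in 2 bins, Zfp511, Zfp658, Zfp719 and Zfp819. None was found of 40 Hox genes, 1081 olfactory receptors, 319 vomeronasal receptors, 24 clustered protocadherins or 36 MHC H2 genes. Genes of these clustered families are neighbours and not independent, and the bins around olfactory receptor starts held a median of 16 BURs.

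Standard SATB1 peaks of BUR-free bins were frequent at promoters. A summit lay within 1 kb of a protein-coding gene start for 26.3% of the peaks of replicate 1 and 34.3% of replicate 2, against 24.2% and 32.1% in BUR-bearing bins. CTCF had 11.2% against 11.0% in thymocytes and 9.70% against 8.21% in skin. Over the 4 lists the difference was 1.48 ± 0.885 percentage points (SD, n = 4 lists, exact sign-flip permutation test, two-sided p = 0.125, the smallest that 4 lists allow, adjusted 0.143), higher in 4 of 4 lists, but it was -0.914 against bins with exactly 1 BUR, a comparison chosen after seeing the data. Of the 899 genes that start in BUR-free bins, 517 (57.5%) had a summit of standard replicate 1 within 1 kb and 390 (43.4%) one of replicate 2, against 50.6% and 39.0% of the genes of BUR-bearing bins. For each urea SATB1 list this was 1 to 3 genes, 0.111% to 0.334% of them. In BUR-bearing bins it was 0.516% to 3.597% of the genes, and higher in every urea SATB1 list. The rule bears on this direction. Counted over urea SATB1 peaks instead of genes, the share at gene starts went the other way, as given below.

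Sequence differed with place. In replicate 1 the 541 standard peaks at a gene start had a median AT content of 35.3%, and 21.1% of their 300 bp windows held the ETS-family word CCGGAAG and 52.1% the GC box GGGCGGG, both strands searched. The 1516 peaks farther away had 46.5% AT, and 5.67% and 10.1% held these words. Of all 300 bp windows of chromosomes 1 to 19, 0.867% held the former and 1.51% the latter. The core CTCF motif, searched by a degenerate 12-base pattern, was in 28% of the windows around thymocyte CTCF peaks of BUR-free bins and 22.9% of those of skin, against a share of 0.147% of all windows. These matches describe the letters and do not show a bound factor. CTCF peaks coincided with 24.1% of the standard peaks of replicate 1 in BUR-free bins and 22.3% of those in BUR-bearing bins. Of the thymocyte CTCF peaks of BUR-free bins, 50.1% overlapped a standard peak of replicate 1 and 84.5% a CTCF peak of skin. In BUR-bearing bins these shares were close, at 53.3% and 83.6%.

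Urea SATB1 peaks, like those of the other lists, had less AT in BUR-free than in BUR-bearing bins. The bins themselves differed by -6.53 percentage points, and the part of their base composition was not tested. For standard SATB1 the difference between peaks was -3.46 and -3.84 points, and for CTCF -3.95 and -4.49. It was larger for the urea SATB1 peaks that remained in BUR-free bins. Their median AT content was 58.4% and 58.1% in the thymocyte replicates (68.2% and 68% in BUR-bearing bins), 59.8% and 60.4% in brain (68.4% and 68.5%) and 50.0% and 49.2% in skin (66.4% and 66.5%). The difference averaged -11.7 ± 4.09 percentage points, lower in 6 of 6 lists (SD over 6 lists, exact sign-flip permutation test, two-sided p = 0.03125, the smallest that 6 lists allow, and 0.0625 after Benjamini-Hochberg adjustment). The longest run without C or without G in 300 bp around the summit was shorter by a median of 4 to 13 bases, a difference of -7.50 ± 3.62 bases with the same p and adjusted p by the exact test. Median fold enrichment was lower by 0.35 ± 0.15 on the log2 scale, again in 6 of 6 lists and with the same p and adjusted p. Replicates of 1 cell type are not separate tissues, so these 6 lists are 3 pairs. The rule also bears on the direction of these differences. BURs are AT-rich with runs lacking C or G, and most urea SATB1 peaks of BUR-bearing bins overlap one. The tests therefore cannot separate a trait of the remaining peaks from the choice of bins.

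These differences include the peaks of BUR-bearing bins that lie on BURs, which the rule leaves little room for in BUR-free bins. A comparison with bins of exactly 1 BUR was chosen after seeing the data. It gave -3.28 percentage points of AT, -5 bases of run and -0.229 in log2 fold. A further comparison, also chosen after seeing the data, used only peaks that overlapped no BUR. The AT difference was then -6.00 percentage points and the run difference -2.92 bases (exact sign-flip permutation test, unadjusted two-sided p = 0.03125 for each, the smallest that 6 lists allow). The bins themselves differed by -6.53 points of AT, so these tests cannot separate a trait of the peaks from the choice of bins. The difference in fold enrichment was then -0.028 on the log2 scale (exact test, p = 0.781). Median fold was higher in BUR-free bins in both thymocyte lists (6.35 against 6.10, and 6.99 against 6.28) and both brain lists (5.56 against 5.37, and 5.74 against 5.58), and lower in both skin lists (5.34 against 6.74, and 5.94 against 6.55). The share of peaks found in the other replicate behaved alike. It was 62.0% and 78.0% in the BUR-free bins of thymocytes against 73.5% and 84.9%, and it was lower in all 6 urea SATB1 lists and higher in both standard lists (48.3% against 45.3%, and 90.4% against 84.3%). Over these 8 lists the difference was -7.99 ± 9.60 percentage points (exact sign-flip permutation test, two-sided p = 0.0625, adjusted 0.0952). Without either standard list it was -12.2 (exact test, p = 0.03125), without either brain list it was -4.61 (exact test, p = 0.25), and among peaks on no BUR it was 1.61 (exact test, p = 0.203). Both lists of a pair count the same shared peaks, 85 in each thymocyte replicate of BUR-free bins. The tests take such lists as separate, so these p-values rest on fewer independent values than the lists they count. Urea SATB1 peaks were rarely at gene starts, with 0.722% to 3.85% of those in BUR-free bins, 1 to 3 peaks a list. That share exceeded that of BUR-bearing bins in 6 of 6 lists, by 0.899 ± 1.01 percentage points (exact sign-flip permutation test, two-sided p = 0.03125, adjusted 0.0625), but it turned to -0.315 with bins shifted by 50 kb and to -0.849 with 200 kb bins, and it was 0.530 without skin replicate 1. Between 51.2% and 59.6% of the peaks lay within a protein-coding gene, against 34.3% to 36.0% in BUR-bearing bins.

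The word CTAAT recurred at the summits of thymocyte and brain urea SATB1 peaks. It was picked after the sequences above had been seen, so its counts are a description without a test. At least 2 copies of CTAAT or ATTAG, overlapping copies included, were in the 300 bp around 61.3% and 61.5% of the peaks of the thymocyte replicates in BUR-free bins (84 of 137 and 67 of 109). In brain they were in 60.3% and 63.8% (167 of 277 and 178 of 279). Of all 300 bp windows of chromosomes 1 to 19, 10.3% held as many, and of those in BUR-free bins 5.33%. At 1 kb to either side of the same summits the shares were 5.47% and 5.05% in thymocytes and 8.48% and 6.63% in brain. Without the sites named above, the shares were 60.0%, 59.8%, 59.6% and 63.2%. Urea SATB1 peaks of BUR-bearing bins held the repeated word about as often, with 66.0% and 65.0% in thymocytes and 58.1% and 59.5% in brain, although their windows had 68.7% to 69.7% AT as a median against 57.3% to 61% in BUR-free bins. Standard SATB1 and CTCF peaks of BUR-free bins held it in 2.11% to 3.31%, below their flanks. Of the BURs themselves, 52.2% of the 89562 that overlapped a urea SATB1 peak of any cell type held it, and 20.4% of the 130266 that overlapped none. Base composition was not matched between peaks and flanks, and its part in the difference was not tested.

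**Figure D4:**
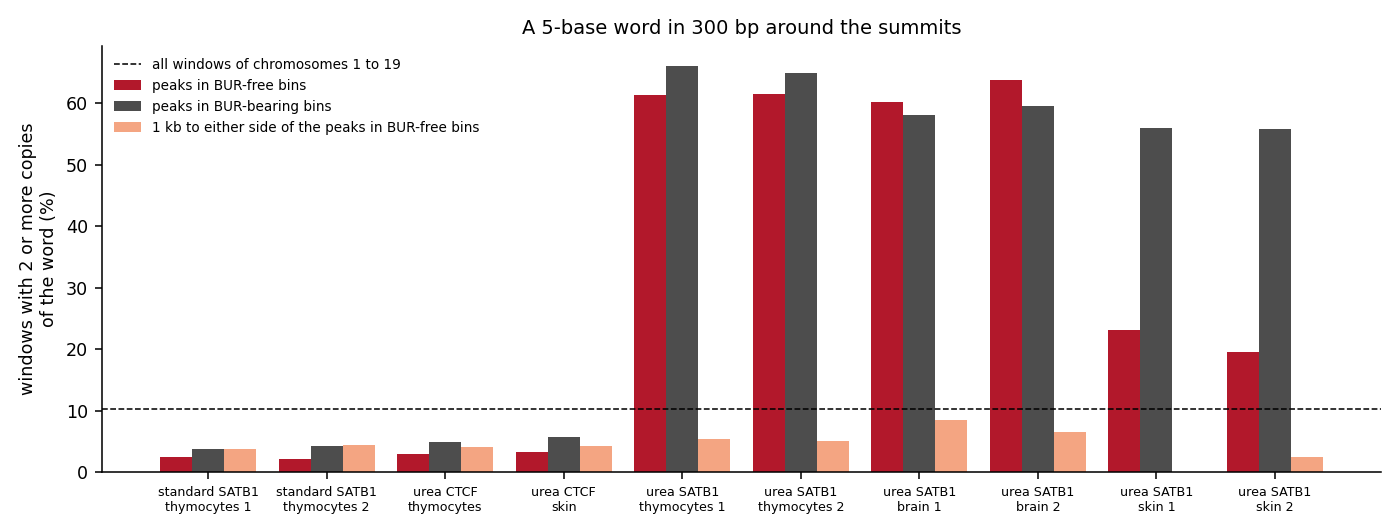
Share of 300 bp windows with 2 or more copies of the word CTAAT or its reverse complement, in percent, around the summits of each list in BUR-free (red) and BUR-bearing (grey) bins and 1 kb to either side of the former (orange), with the share of all windows of chromosomes 1 to 19 as a dashed line at 10.3%. The 4 thymocyte and brain urea SATB1 lists stand at 60.3% to 63.8% in BUR-free bins, the skin lists at 23.1% and 19.5%, and the other 4 lists below the line.

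Skin urea SATB1 peaks of BUR-free bins are given apart, and differences between cell types were not tested. Repeated words were in 12 of 52 (23.1%) and 8 of 41 (19.5%) of its urea SATB1 peaks in BUR-free bins, against 55.9% and 55.8% in BUR-bearing bins. Of those peaks, 32 of 52 (61.5%) and 24 of 41 (58.5%) overlapped a skin CTCF peak, where thymocyte and brain urea SATB1 peaks overlapped one in 0.722% to 2.19%. The mean of the skin replicates, 60.0%, was 35.2% when all lists were cut to equal size. In BUR-bearing bins the skin shares were 42.3% and 40.3% for peaks on no BUR and 3.05% and 3.04% for peaks on a BUR. The overlap with thymocyte CTCF peaks was 3 peaks in each skin replicate. Skin peaks on a skin CTCF peak had a median AT content of 47.2% and 47% and the others 56.5% and 55.7%. The repeated word was in 1 of 32 and 0 of 24 of the former, and in 11 of 20 and 8 of 17 of the latter. A standard SATB1 peak of thymocytes was also present at 24 of the 32 and 16 of the 24.

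Incompletely resolved bins held many of these skin peaks. The bins chr5:33000001-33100000 and chr8:56200001-56300000, of which 50.0% and 90.9% are unresolved bases, held 5 and 4 peaks of skin replicate 1 and 6 and 3 of replicate 2. The former carried peaks of all 10 lists, with 8 of skin CTCF and 9 and 3 of standard SATB1. Without the 18 bins that are over 10% unresolved, 23 of 43 (53.5%) and 15 of 32 (46.9%) of the skin peaks overlapped a skin CTCF peak. Input libraries were not used here, and the part of unresolved sequence in the remaining overlap was not tested.

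**Figure D5:**
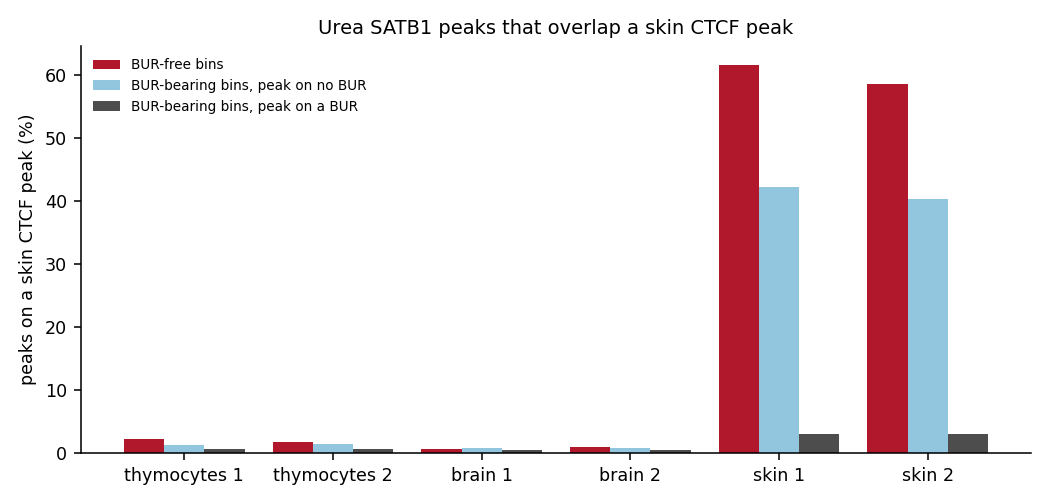
Share of urea SATB1 peaks that overlap a skin CTCF peak by at least 1 bp, in percent, for each replicate, in BUR-free bins and, in BUR-bearing bins, for peaks on no BUR and on a BUR. The skin replicates stand at 61.5% and 58.5% in BUR-free bins and the thymocyte and brain replicates at 2.19% or less.

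Merged over the 6 lists, the urea SATB1 peaks of BUR-free bins formed 449 sites in 261 bins, of which 1 touched a BUR across the edge of the bin. Of these, 206 were in 1 list only and 223 were in both replicates of at least 1 cell type. Both brain replicates shared 175 sites, both thymocyte replicates 85 and both skin replicates 32. Of the peaks of the thymocyte replicates in BUR-free bins, 82.5% and 85.3% overlapped a brain peak, against 96.1% and 95.5% in BUR-bearing bins. Of the brain peaks, 39.7% and 40.1% overlapped a thymocyte peak, against 38.6% and 41.0%. For peaks of BUR-bearing bins on no BUR these shares were 86.4% and 86.5% in thymocytes and 28.5% and 30.5% in brain. Lists were of unequal length (brain 117963 and 109154 peaks, skin 11210 and 10846), which bears on such shares. All 6 lists met at 8 sites, and 1 of these, at chr5:33076467-33077065 in the bin on chromosome 5 above, also overlapped CTCF and standard SATB1 peaks.

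At the edges of the rule, 19 BUR-free bins entered through a single peak, 13 of them through a skin CTCF peak. Of the 738 BUR-free bins that had no peak, 716 were over 90% unresolved and 15 were at most 10% unresolved, so nearly all BUR-free sequence held a peak. A BUR midpoint lay within 10 kb of an end of 178 of the 494 bins.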

How the data were processed

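The authors aligned reads to NCBI37/mm9 with Bowtie2 2.3.1, kept unique matches, and called the peaks of each sample on its own with MACS2 2.2.7, keeping those that passed a q-value of 0.01. Whether an input entered the calling is not given in the sources used here. The deposited lists give each peak's position, a display score made by the authors' peak caller (not used), fold enrichment (the ratio of summit pileup to local background), the −log10 p-value and −log10 q-value of the authors' peak caller, and the summit position. They hold no counts, so depth was not weighed here and the spread between 2 replicates sets the precision. The study states that total aligned reads of urea ChIP-seq were similar between its cell types.

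Peaks were assigned to 100 kb bins by midpoint, and overlaps needed 1 bp. Gene starts came from GENCODE vM1 and sequence from NCBIM37. AT content was taken over the peak, and words, motifs and runs over 300 bp around the summit. Lists were compared by exact two-sided permutation tests over lists (Python 3.11.15, numpy 2.4.6, scipy 1.17.1, pandas 2.3.3, matplotlib 3.10.9), with Benjamini-Hochberg adjustment over 8 tests (2 of them, on the share of peaks in the bins, are given without p because the rule bears on them) and a threshold of 0.05 on the unadjusted p. The rule also bears on the tests of AT content, run and fold enrichment, whose p-values are given with that limit. The code was tested on simulated data with planted bins and differences. The bins, gene lists and tests were chosen with earlier results of these data known. Named are the 10 bins with most standard SATB1 peaks (with the gene nearest to the strongest), the 5 longest stretches (ties by standard SATB1 peaks, with up to 4 genes), the strongest urea SATB1 peaks on no BUR in both replicates (5 thymocyte, 3 brain, 3 skin), 2 CTCF and 2 standard peaks, and up to 4 genes per list. Other samples of the series were not used here. A brain peak and a bin that this rule names are not reported here.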

Additional observations from a re-analysis of the deposited data

Results flagged for a closer look

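Differences in fold enrichment had opposite signs for SATB1 and CTCF. The median of urea SATB1 peaks was lower in BUR-free than in BUR-bearing bins in 6 of 6 lists and that of standard SATB1 in 2 of 2, while that of CTCF was higher in 2 of 2 (8.15 against 7.85 in thymocytes, 5.85 against 5.76 in skin). The mean log2 differences of urea SATB1 and CTCF were -0.39 apart and those of standard SATB1 and CTCF -0.094 apart. The share of peaks found in the other replicate was lower in BUR-free bins for urea SATB1 and higher for standard SATB1, and the 2 mean differences were -16.8 percentage points apart. Both contrasts include peaks of BUR-bearing bins that lie on BURs. Among peaks on no BUR the urea SATB1 fold difference was -0.028, with the thymocyte and brain lists higher in BUR-free bins and the skin lists lower, and the other-replicate difference over all 8 lists was 1.61 percentage points. These differences between groups of lists were not tested, and their cause was not tested.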

How the results depend on the processing

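The share of peaks in BUR-free bins, urea SATB1 against standard SATB1 or CTCF, kept its direction under every alternative tried, which the rule that chose the bins bears on. The lower AT content and shorter runs of urea SATB1 peaks, on which the rule also bears, kept theirs too. The fold enrichment by list, the share of peaks at gene starts and the share found in the other replicate did not. For urea SATB1 at gene starts the difference was -0.315 with bins shifted by 50 kb, -0.849 with 200 kb bins, and 0.458 with 50 kb bins. For standard SATB1 and CTCF it was -0.353 with 200 kb bins. With 50 kb bins the other-replicate difference was -8.79 (exact p = 0.0469). The number of bins was 3740, 30 and 316 with 50 kb bins, 200 kb bins and no BUR within 10 kb, and bins with a gene start were 49.8% with 50 kb bins, 71.8% with no BUR within 10 kb, 75.6% with lists of equal size and 80.8% with all genes. The mean share of skin urea SATB1 peaks on a skin CTCF peak was 50.1% (50 kb bins), 76.2% (200 kb bins), 50.3% (no BUR within 10 kb), 57.7% (−log10 q of at least 5), 50.2% (bins at most 10% unresolved), 35.2% (equal lists) and 55.9% (50% overlap). With lists of equal size fewer lists kept peaks in these bins, and the differences were -14.8 points of AT, -0.24 in log2 fold, -9.25 bases of run and 0.673 points at gene starts, with exact p of 0.125, 0.375, 0.125 and 0.625. Chosen after seeing the data, bins with exactly 1 BUR in place of all BUR-bearing bins gave -0.914 for standard SATB1 and CTCF at gene starts, 0.562 for urea SATB1, and -0.865 points of AT between bins. For urea SATB1 peaks the same bins gave -3.28 points of AT, -5 bases of run and -0.229 in log2 fold. Only peaks on no BUR gave -0.028 in log2 fold (higher in both thymocyte and both brain lists, lower in both skin lists), 1.61 for the other replicate and 0.461 for urea SATB1 at gene starts. Counting 3 or more words lowered their excess over the flanks to 24.4 points. Causes were not tested. Leaving out 1 list at a time gave -12.4 to -10.6 points of AT, -0.39 to -0.30 in log2 fold, -8.20 to -6.40 bases of run and 0.530 (without skin replicate 1) to 1.07 at gene starts, each with p = 0.0625 by the exact test, the smallest that 5 lists allow. The other-replicate difference was -12.2 without either standard list, which leaves the 6 urea SATB1 lists (exact p = 0.03125), and -4.61 without either brain list (exact p = 0.25). Both lists of a pair count the same shared peaks, and these tests take them as separate. With the replicate number as a replicate block, the thymocyte difference in share was -4.05, the same value. Same-numbered lists did not deviate together (r = -0.00427 over 23791 bins), so the number is no pairing. The lists hold no counts, so depth was not weighed.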
